A study of Mus musculus with 48 samples.

Results

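The Mx, viperin, tetherin and IFITM effectors are antiviral proteins that act within or at the membranes of the infected cell, and their transcripts were followed in NMM cells, a mouse melanoma line with a mutated NRAS gene. The 9 genes were found in the count table by symbol: Mx1, Mx2, Rsad2 (viperin), Cmpk2, Bst2 (tetherin), Ifitm1, Ifitm2, Ifitm3 and Samhd1. They are 9 of 49671 genes in the table, and all 9 passed the filter on low counts, which left 12203 genes. The cells carry the NRAS mutation in every group, and no other allele is given in the labels. They received IFNα1 at 5000 U/ml, IFNγ at 0.01, 1 or 100 ng/ml, TNF at 0.1, 1 or 10 ng/ml, IFNγ at 100 ng/ml together with TNF at 10 ng/ml (the combination), IL-2 at 6000 U/ml, 2 ng/ml lymphotoxin α1β2 or 10 ng/ml TGF-β, or they were left unstimulated. Each of these 12 groups had 1 bulk library of poly(A) RNA after 2, 6, 12 and 24 h of continuous exposure, 48 libraries in all. The labels do not say whether the libraries of a group came from separate cultures. The p-values thus measure the spread between libraries of different durations, which may be technical. In the tests of means over durations, this spread also takes in any change of a stimulus effect with time. The model is 1 cell line in culture, and its labels give no clone or passage.

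Interferon effectors are switched on when interferons bind their receptors. Type I interferons such as IFNα1 signal through Jak1 and Tyk2 to a complex that contains Irf9 and binds a DNA element called the ISRE. IFNγ signals through Jak1 and Jak2 to genes with a GAS element and induces Irf1, which also binds ISRE-like sequence. Mx proteins are dynamin-like GTPases that trap viral nucleoproteins. Viperin is a radical SAM enzyme that turns CTP into a chain-terminating analogue, and Cmpk2 is a nucleotide kinase encoded beside it. Tetherin holds budding particles at the cell surface, IFITM proteins stiffen membranes against viral fusion, and Samhd1 hydrolyses the dNTPs that reverse transcription needs.

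The genes lie on 5 chromosomes (build GRCm38). Mx1 (ENSMUSG00000000386) spans 97447035 to 97462907 on the minus strand of chromosome 16 and Mx2 (ENSMUSG00000023341) spans 97535308 to 97560900 on its plus strand, 72400 bp away. The annotation calls Mx2 a polymorphic pseudogene and the other 8 genes protein coding. Rsad2 (ENSMUSG00000020641, chromosome 12, 26442753 to 26456452, minus strand) and Cmpk2 (ENSMUSG00000020638, 26469204 to 26479835, plus strand) point away from each other with 12751 bp and no other annotated gene between them. Bst2 (ENSMUSG00000046718) spans 71534255 to 71537456 on the minus strand of chromosome 8, and Samhd1 (ENSMUSG00000027639) 157097533 to 157135265 on the minus strand of chromosome 2. On chromosome 7 lie Ifitm2 (ENSMUSG00000060591, 140954837 to 140955987, minus strand), Ifitm1 (ENSMUSG00000025491, 140967221 to 140969825, plus strand) and Ifitm3 (ENSMUSG00000025492, 141009586 to 141010770, minus strand).

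Promoter sequences are given because the ISRE and GAS elements named above would stand there. RefSeq promoters (build GRCm38.p6, 250 bases before to 50 after the start) were available for 7 of the 9 genes. Those of Mx1 and Mx2 are not shown. The ISRE core was searched as GAAANNGAAA or, on the opposite strand, TTTCNNTTTC, and capitals mark it below. The 4 promoters shown are those of viperin and tetherin, which rose with IFNα1, and those of Ifitm3 and Ifitm1, which were not called with it.

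Rsad2, chr12:26456403-26456702, minus strand: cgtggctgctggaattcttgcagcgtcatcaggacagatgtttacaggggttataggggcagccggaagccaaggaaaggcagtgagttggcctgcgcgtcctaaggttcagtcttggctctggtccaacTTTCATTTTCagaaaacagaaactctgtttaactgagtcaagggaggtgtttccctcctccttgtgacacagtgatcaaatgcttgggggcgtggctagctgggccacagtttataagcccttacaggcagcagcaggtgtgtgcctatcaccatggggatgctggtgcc

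Bst2, chr8:71537423-71537722, minus strand: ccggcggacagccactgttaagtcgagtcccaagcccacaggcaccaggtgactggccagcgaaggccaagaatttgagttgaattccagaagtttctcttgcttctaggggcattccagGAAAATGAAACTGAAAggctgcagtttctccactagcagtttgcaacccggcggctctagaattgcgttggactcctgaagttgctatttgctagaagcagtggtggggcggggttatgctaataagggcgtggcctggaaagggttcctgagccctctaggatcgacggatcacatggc

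Ifitm3, chr7:141010695-141010994, minus strand: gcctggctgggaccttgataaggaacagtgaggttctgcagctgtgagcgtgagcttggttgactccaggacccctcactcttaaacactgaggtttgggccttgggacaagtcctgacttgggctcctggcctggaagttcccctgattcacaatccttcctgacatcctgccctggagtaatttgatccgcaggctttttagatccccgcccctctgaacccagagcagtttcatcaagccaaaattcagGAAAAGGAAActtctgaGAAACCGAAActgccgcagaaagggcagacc

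Ifitm1, chr7:140967826-140968125, plus strand: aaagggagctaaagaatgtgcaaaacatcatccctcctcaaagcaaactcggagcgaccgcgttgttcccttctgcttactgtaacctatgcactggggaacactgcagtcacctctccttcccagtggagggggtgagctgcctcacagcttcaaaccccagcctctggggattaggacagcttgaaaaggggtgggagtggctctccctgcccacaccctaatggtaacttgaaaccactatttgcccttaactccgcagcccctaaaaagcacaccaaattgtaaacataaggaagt

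In the Rsad2 promoter the ISRE core lay at -120 to -111 from the start site. Bst2 held 2 overlapping ISRE cores, at -130 to -121 and -124 to -115, and a GAS core (TTCNNNGAA, the same on both strands) at -136 to -128. Ifitm3 held 2 ISRE cores after its start site, at 3 to 12 and 20 to 29, with a GAS core at 14 to 22 that overlaps the second. In the promoters that are not shown, Ifitm2 had an ISRE core at -46 to -37 and Samhd1 a GAS core at -235 to -227. No ISRE or GAS core stood in the Cmpk2 or Ifitm1 window. The Ifitm1 window surrounds the RefSeq start and lies inside the gene as given above, whose first annotated start is upstream of it, and sequence at that upstream start was not searched. The NF-κB motif, searched by its name as a degenerate consensus on both strands, matched Bst2 at -142 to -133, where it overlaps the GAS core, and Ifitm3 at -116 to -107. Of all 32544 distinct promoter sequences of this length, 3.448% held the ISRE core, 8.327% the GAS core and 8.493% the NF-κB motif. Such a match describes letters in this window and does not show a binding site.

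The libraries held 5612907 to 9663207 counts, and mitochondrial genes took 0.513% to 1.44% of them. Levels below are CPM, the counts scaled to library size after TMM, so that 1 count was worth 0.105 to 0.179 CPM. Of 7 melanocyte markers, 1 passed the count filter, Dct and Mlana were at 0 in all 48 libraries, and the summed markers reached 3.76 to 13.9 CPM. Pigment cell markers were thus at or near 0 in a line labelled melanoma. Of 8 T and NK cell markers, 6 were at 0 throughout. Siglech and Ccr9, markers of the plasmacytoid dendritic cells that make much type I interferon, were at 0 throughout. The macrophage markers summed to 1.752 to 5.38 CPM, with 1 past the count filter and Adgre1 at 0 throughout. Fibroblast markers summed to 23.8 to 56.3 CPM with IFNα1, 15.9 to 24.3 CPM with IFNγ at 100 ng/ml, 16.6 to 23.9 CPM at 1 ng/ml, 25.4 to 69.5 CPM with TNF at 10 ng/ml and 18.1 to 32.6 CPM in the combination, against 23.4 to 35.6 CPM in unstimulated libraries. Endothelial markers summed to 5.00 to 18.5 CPM with TNF at 10 ng/ml and 4.64 to 14.5 CPM in the combination, against 3.58 to 6.48 CPM in unstimulated libraries, and the part of both marker groups in the results of those stimuli was not tested. Reads of near-identical copies limit some genes. Of all 50-base stretches in the transcripts of Ifitm2, 48.5% also occur in other genes' transcripts, among them Gm45717, which overlaps Ifitm2 on the same strand. The shares were 10.0% for Ifitm3, 5.02% for Ifitm1, 4.38% for Mx2, 3.91% for Mx1 and 1.70% for Samhd1. Rsad2, Cmpk2 and Bst2 shared none. Values of Ifitm2 are therefore uncertain.

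All 9 transcripts were present without any cytokine. Per kilobase of exon, the unstimulated cells held most of Ifitm3, at 1736 CPM per kb, and Bst2, at 832 CPM per kb. Rsad2 (130.05), Ifitm2 (125), Cmpk2 (94.7) and Ifitm1 (93 CPM per kb) followed, and each of these 4 overlapped with the next in the order over the 4 durations. Samhd1 (18.2), Mx2 (12.8) and Mx1 (10.5 CPM per kb) were lowest, and each overlapped with the next. The baseline itself moved with the sampling time. Unstimulated Mx1 stood at 17.7, 26, 81 and 33.8 CPM at 2, 6, 12 and 24 h, and unstimulated Rsad2 at 411, 323, 968 and 553 CPM. The 12 h library was the highest of the 4 for Mx1, Mx2, Rsad2, Cmpk2, Bst2 and Samhd1. With IL-2 and lymphotoxin, whose groups had no gene called in the whole table, Mx1 was again highest at 12 h, with 86 CPM in the IL-2 library and 92.8 CPM in the lymphotoxin library. The IFITM genes had a flatter baseline. Ifitm1 averaged 102 ± 9.5 CPM, Ifitm2 82.1 ± 7 CPM and Ifitm3 1177 ± 77.2 CPM in unstimulated cells (SD over 4 durations, n = 4). The SD of Mx1 over the same libraries was 28.4 CPM around a mean of 39.6 CPM.

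**Figure D1:**
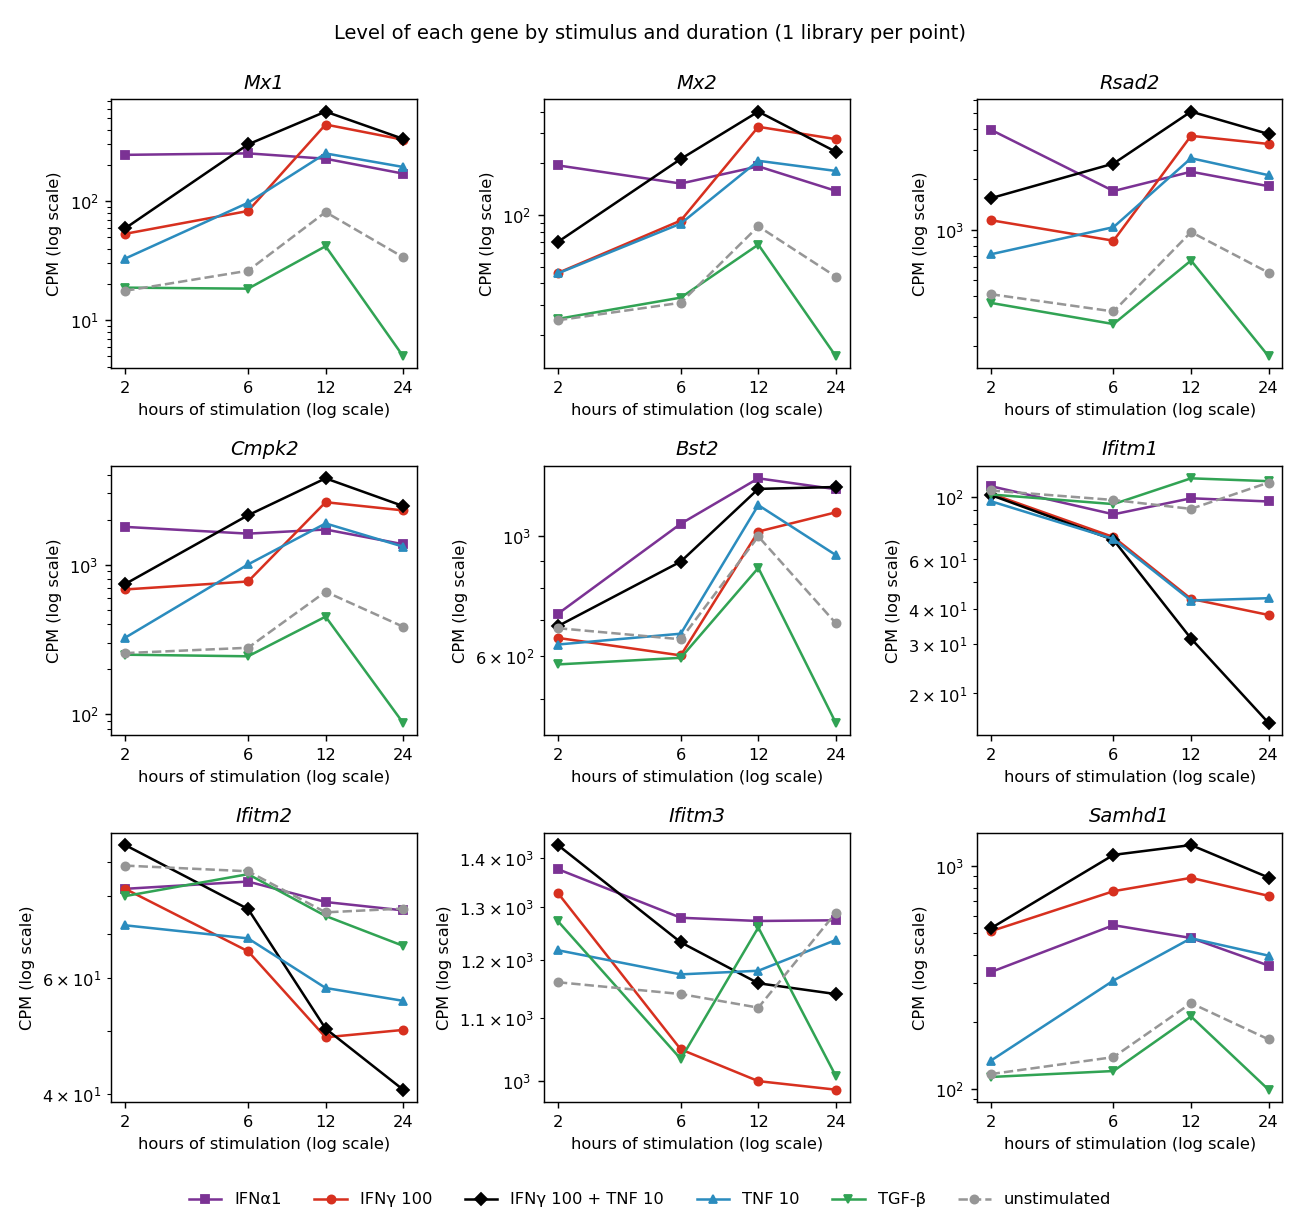
Level of each of the 9 genes (CPM, log axis) against hours of stimulation (log axis) for IFNα1, IFNγ at 100 ng/ml, the combination, TNF at 10 ng/ml, TGF-β and unstimulated cells, with 1 library per point. The dashed baseline peaks at 12 h for 6 of the 9 genes, IFNα1 is already high at 2 h for Mx1, Mx2, Rsad2 and Cmpk2, and Ifitm1 declines over time with IFNγ, TNF and the combination, down to 15.7 CPM at 24 h in the combination.

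Changes from unstimulated cells were tested as means over the 4 durations with edgeR's quasi-likelihood test, fitted to all 48 libraries with a term for each stimulus and each duration. A gene is called where its Benjamini-Hochberg adjusted p over all tested genes is under 0.05, and ± after a log2 change is its approximate standard error. The groups compared with unstimulated cells share those 4 control libraries. For the 9 genes, groups that stood next to each other in the order of their mean levels overlapped over the durations. Mx1 averaged 315 ± 208 CPM in the combination, 226 ± 189 CPM with IFNγ at 100 ng/ml, 224 ± 37.1 CPM with IFNα1 and 144 ± 97.8 CPM with TNF at 10 ng/ml, against 39.6 ± 28.4 CPM in unstimulated cells (SD over 4 durations, n = 4 each). Mx2, Rsad2, Cmpk2 and Samhd1 were likewise highest in the combination and lowest with TGF-β. Rsad2 averaged 3223 ± 1547 CPM in the combination and 366 ± 207 CPM with TGF-β, against 564 ± 286 CPM in unstimulated cells. Bst2 was highest with IFNα1, at 1066 ± 250.9 CPM, and lowest with TGF-β, at 625 ± 177 CPM, against 752 ± 165 CPM in unstimulated cells. Ifitm1 ran the other way, highest with TGF-β at 107 ± 10.4 CPM and lowest in the combination at 54.8 ± 38.9 CPM, against 102 ± 9.5 CPM in unstimulated cells. Ifitm2 was lowest with IFNγ at 100 ng/ml, at 61.7 ± 15.6 CPM, and highest in unstimulated cells, at 82.1 ± 7 CPM. In bulk RNA, fewer responding cells and less RNA per cell cannot be told apart. A set of 5, Mx1, Mx2, Rsad2, Cmpk2 and Samhd1, rose with IFNα1, with IFNγ at 1 and 100 ng/ml, with TNF at 10 ng/ml and with the combination. Bst2 rose with IFNα1 and the combination. Ifitm1 and Ifitm2 moved downwards where they were called. In this fit to all libraries Ifitm3 was not called against unstimulated cells with any stimulus.

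**Figure D2:**
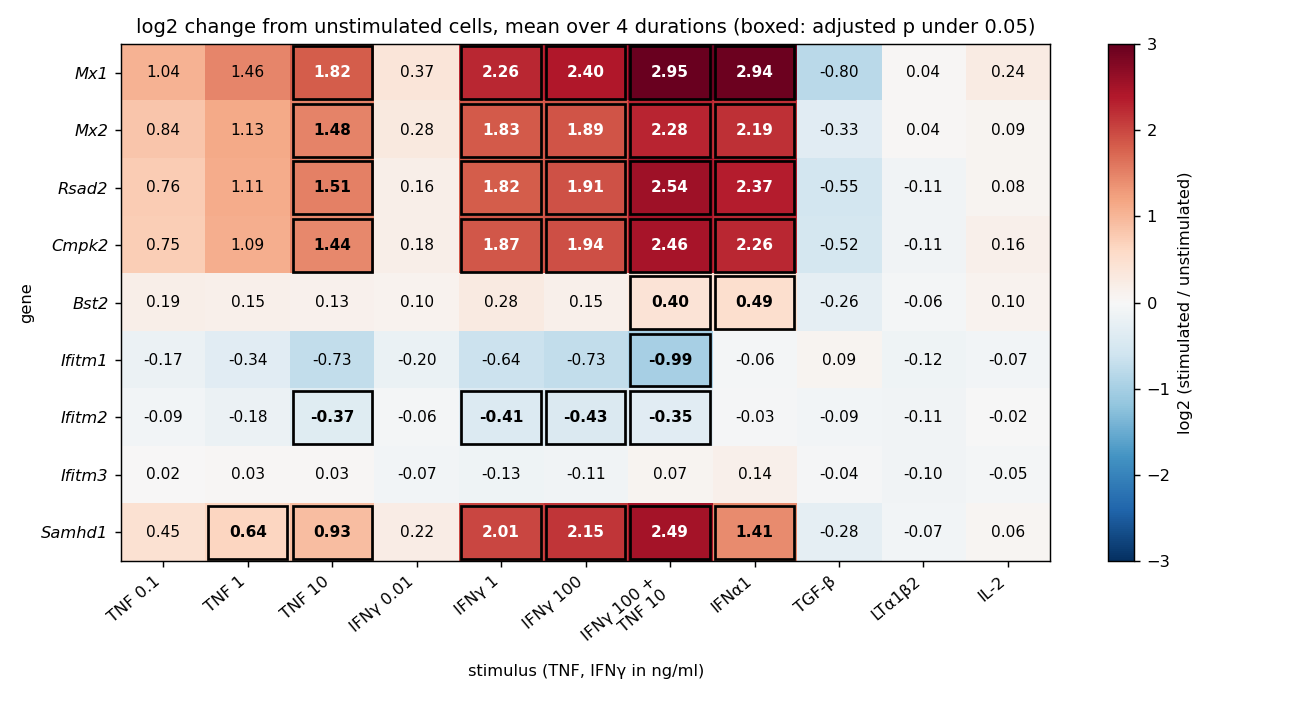
Fitted log2 change of each gene (rows) from unstimulated cells for 11 stimuli (columns, doses of TNF and IFNγ in ng/ml), each a mean over 4 durations. Boxes mark an adjusted p under 0.05. Mx1 has the highest values, 2.95 with the combination and 2.94 with IFNα1, and the only boxed negative values are those of Ifitm1 and Ifitm2.

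IFNα1 raised 6 of the 9 genes, against 6.18% of all tested genes higher, and lowered none. Mx1, Mx2, Rsad2 and Cmpk2 were already high at 2 h. The change of their difference with time, a slope described with the IFITM genes, was not called by edgeR (adjusted p = 0.38, 0.209, 0.184 and 0.501). Mx1 stood at 245, 252, 227 and 171 CPM at 2, 6, 12 and 24 h with IFNα1, against 17.7, 26, 81 and 33.8 CPM in unstimulated cells. All 4 IFNα1 libraries lay above all 4 unstimulated ones. The log2 ratio at matched times was 3.78, 3.26, 1.49 and 2.32, so that the 2 h and 6 h libraries stood furthest apart. The mean change of Mx1 was 2.94 ± 0.48 (adjusted p = 8.22e-05) on the log2 scale, a 7.65-fold increase. Mx2 rose by 2.19 ± 0.37 (adjusted p = 1.03e-04). Its values were 195, 153, 192 and 138 CPM with IFNα1, against 24.4, 30.8, 86 and 43.8 CPM without cytokine, again with no overlap.

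The viperin locus was also high at 2 h. Rsad2 reached 3982, 1706, 2227 and 1823 CPM at 2, 6, 12 and 24 h with IFNα1, against 411, 323, 968 and 553 CPM in unstimulated cells, and its highest IFNα1 value was the 2 h one. It rose by 2.37 ± 0.35 (adjusted p = 2.77e-05). Cmpk2 held a level of 1788, 1611, 1717 and 1368 CPM, against 256, 278, 658 and 384 CPM, and rose by 2.26 ± 0.37 (adjusted p = 8.76e-05). Neither gene's groups overlapped. Samhd1 rose by less, 1.41 ± 0.18 (adjusted p = 5.25e-06), with 334, 543, 476 and 358 CPM in IFNα1 libraries, against 117, 139, 243 and 167 CPM in unstimulated ones. Tetherin rose by 0.49 ± 0.12 (adjusted p = 0.00732). Its values of 718, 1052, 1276 and 1219 CPM with IFNα1 overlapped with 675, 644, 997 and 689.7 CPM without, and the 2 h libraries differed by a log2 ratio of 0.09. Its slope over time was 0.16 ± 0.09 (adjusted p = 0.431).

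The IFITM genes did not pass the test with IFNα1. Ifitm3 stood at 1377, 1279.7, 1273 and 1275 CPM, against 1161, 1140.3, 1117 and 1289.5 CPM, a difference of 0.14 ± 0.07 (adjusted p = 0.23). Ifitm1 differed by -0.06 ± 0.27 (adjusted p = 0.941) and Ifitm2 by -0.03 ± 0.12 (adjusted p = 0.93). Of 5 further Ifitm genes listed, 4 stood in the table and 1, Ifitm6, passed the count filter. It rose with IFNα1 by 0.93 ± 0.23 (adjusted p = 0.00463). With the IFNα1 and unstimulated libraries alone in the fit, Mx1 (adjusted p = 0.0899), Mx2 (0.0874), Rsad2 (0.112) and Cmpk2 (0.0510) missed the threshold. Bst2 missed it without the 6 h libraries (adjusted p = 0.103), with the 2 h and 6 h libraries alone (0.147) and with the 12 h and 24 h libraries alone (0.1000).

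IFNγ at 100 ng/ml raised 5 of the 9 genes, against 12.8% of tested genes higher, and lowered 1, against 9.3% lower. Samhd1 had the smallest adjusted p of the 9. It had 509.7, 771, 885 and 735 CPM at 2, 6, 12 and 24 h, against 117, 139, 243 and 167 CPM in unstimulated cells, with no overlap, and was already higher by a log2 ratio of 2.12 at 2 h. The mean change was 2.15 ± 0.19 (adjusted p = 1.54e-10), 4.43-fold. This call was kept under every alternative tried.

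With IFNγ the Mx genes and the viperin locus had their highest libraries at 12 h, as in unstimulated cells. The slope of the difference over time, described with the IFITM genes, was not called for Mx1 (adjusted p = 0.322), Mx2 (0.114), Rsad2 (0.353) or Cmpk2 (0.379) by edgeR. Mx1 stood at 53.2, 82.8, 441 and 329 CPM, against 17.7, 26, 81 and 33.8 CPM. The 2 h IFNγ library lay below the 12 h unstimulated one, so the groups overlapped, while each IFNγ library was above the unstimulated library of its own time. Mx1 rose by 2.40 ± 0.48 (adjusted p = 3.94e-04) and Mx2 by 1.89 ± 0.37 (adjusted p = 2.72e-04). Mx2 had 46, 92.9, 327 and 277 CPM with IFNγ, against 24.4, 30.8, 86 and 43.8 CPM in unstimulated cells. Both Mx genes were higher at 12 h and 24 h than at 2 h in the IFNγ libraries. Rsad2 reached 1141, 859, 3656 and 3267 CPM, against 411, 323, 968 and 553 CPM, and rose by 1.91 ± 0.34 (adjusted p = 1.15e-04). Cmpk2 reached 682, 771, 2614 and 2304 CPM, against 256, 278, 658 and 384 CPM, and rose by 1.94 ± 0.37 (adjusted p = 2.36e-04). None of these 4 was called with the 2 h and 6 h libraries alone, where the log2 change was 1.66 for Mx1 (adjusted p = 0.191), 1.29 for Mx2 (0.117), 1.45 for Rsad2 (0.0841) and 1.45 for Cmpk2 (0.155). Bst2, at 648, 602, 1018 and 1105 CPM with IFNγ, against 675, 644, 997 and 689.7 CPM, differed by 0.15 ± 0.12 (adjusted p = 0.421) over all durations, with a log2 ratio of 0.68 at 24 h and -0.06 at 2 h.

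At 1 ng/ml, IFNγ raised the same 5 genes, against 9.51% of tested genes higher, and lowered 1, against 5.47% lower. Mx1 rose by 2.26 ± 0.48 (adjusted p = 0.00109), Mx2 by 1.83 ± 0.37 (adjusted p = 5.59e-04), Rsad2 by 1.82 ± 0.34 (adjusted p = 2.89e-04), Cmpk2 by 1.87 ± 0.37 (adjusted p = 4.84e-04) and Samhd1 by 2.01 ± 0.19 (adjusted p = 9.07e-10). Between 100 and 1 ng/ml no member was called by edgeR or DESeq2, none had an unadjusted p under 0.05, and 0% of all tested genes were called. The difference between these doses was 0.14 ± 0.43 for Mx1 and 0.14 ± 0.18 for Samhd1 on the log2 scale. At 0.01 ng/ml no member was called by edgeR or DESeq2 and none had an unadjusted p under 0.05, with 0% of all genes called. Mx1 then differed by 0.37 ± 0.50 (adjusted p = 1) and Samhd1 by 0.22 ± 0.18 (adjusted p = 1). With these 2 groups alone in the fit, 5 members were called at this dose, among 35 genes in all, Mx1 (0.34), Mx2 (0.30), Rsad2 (0.16) and Cmpk2 (0.18) higher and Ifitm1 (-0.20) lower.

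**Figure D3:**
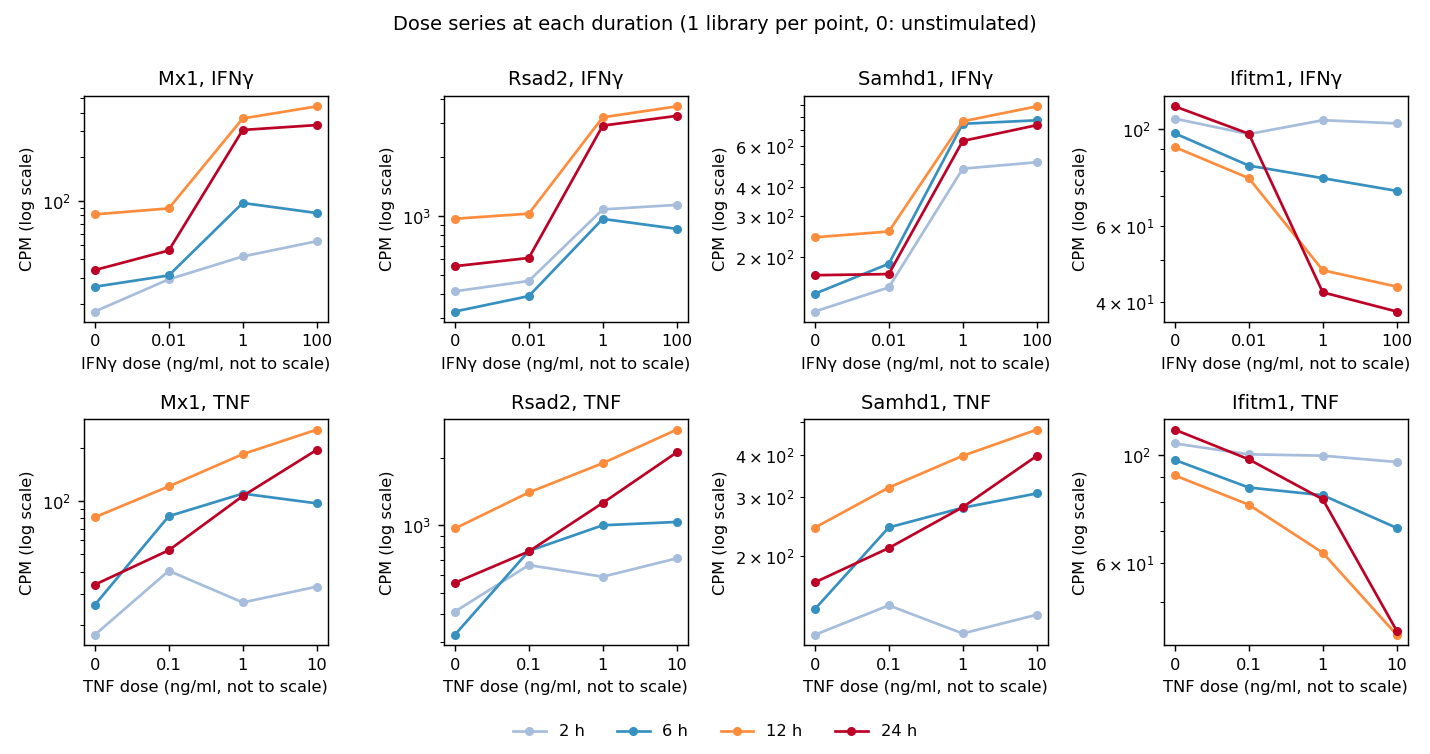
CPM (log axis) of Mx1, Rsad2, Samhd1 and Ifitm1 against dose (ng/ml, evenly spaced) for IFNγ (upper row) and TNF (lower row), with the unstimulated cells at 0 and a line for each duration, 1 library per point. With IFNγ the values step between 0.01 and 1 ng/ml at 12 h and 24 h, while Ifitm1 shows no such step at 2 h. With TNF the values change gradually over the doses at 12 h and 24 h. Neighbouring IFNγ doses differ by a larger factor than neighbouring TNF doses, which the even spacing hides. The shapes therefore cannot be compared between the cytokines.

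TNF, an inflammatory cytokine that acts through NF-κB and is not an interferon, also raised the set of 5 at its highest dose. At 10 ng/ml it raised 5 of the 9 genes, against 9.83% of tested genes higher, and lowered Ifitm2, against 7.3% lower. Mx1 reached 32.9, 97, 252 and 194 CPM at 2, 6, 12 and 24 h, against 17.7, 26, 81 and 33.8 CPM, and rose by 1.82 ± 0.48 (adjusted p = 0.00715). Mx2 rose by 1.48 ± 0.37 (adjusted p = 0.00459). Rsad2 reached 712, 1036, 2683 and 2123 CPM, against 411, 323, 968 and 553 CPM, and rose by 1.51 ± 0.34 (adjusted p = 0.00206), and Cmpk2 rose by 1.44 ± 0.37 (adjusted p = 0.00548). Cmpk2 had 324, 1003, 1886 and 1318 CPM with TNF, against 256, 278, 658 and 384 CPM. In the TNF libraries these genes were highest at 12 h, as in unstimulated cells. Samhd1 rose by 0.93 ± 0.18 (adjusted p = 4.81e-04), with a log2 ratio of 0.20 at 2 h and 1.25 at 24 h. Every TNF library stood above the unstimulated one of its own time for these 5 genes, although the groups overlapped. Rsad2 and Samhd1 were called in each fit that left out 1 duration. With the 2 h and 6 h libraries alone no member was called, and without the 6 h libraries Mx1 (adjusted p = 0.0616), Mx2 (0.0556), Cmpk2 (0.0720) and Ifitm2 (0.177) were not. Without the 12 h libraries Mx1 (0.0667), Mx2 (0.0519), Cmpk2 (0.0781) and Ifitm2 (0.190) missed the threshold, and without the 24 h libraries Mx1 (0.0651) and Ifitm2 (0.0592) did.

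At 1 ng/ml TNF, Samhd1 was the 1 member called, at 0.64 ± 0.18 (adjusted p = 0.0481), against 2.01% of tested genes higher. The call was lost without the 6 h (adjusted p = 0.453), the 12 h (0.279) or the 24 h libraries (0.184), while DESeq2 called 3 members among 434 genes and the fit without the 2 h libraries 5 members among 718 genes. Mx1 differed by 1.46 ± 0.48 (adjusted p = 0.095) and Rsad2 by 1.11 ± 0.34 (adjusted p = 0.0691). At 0.1 ng/ml no member was called by edgeR or DESeq2, 5 had an unadjusted p under 0.05, and 0.0164% of all genes were called. Mx1 there had 40.5, 82.2, 121 and 52.8 CPM, against 17.7, 26, 81 and 33.8 CPM, a difference of 1.04 ± 0.49 (adjusted p = 0.956). Between 10 and 1 ng/ml no member was called by edgeR or DESeq2 and none had an unadjusted p under 0.05, with 0.238% of all genes called, and the difference of Mx1 was 0.37 ± 0.44 (adjusted p = 0.89).

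With the combination 8 of the 9 genes were called, 6 higher, against 20.9% of tested genes higher, and 2 lower, against 21.2% lower. Mx1 stood at 59.2, 300.4, 567 and 334 CPM at 2, 6, 12 and 24 h, against 17.7, 26, 81 and 33.8 CPM, and rose by 2.95 ± 0.48 (adjusted p = 6.98e-06). Rsad2 reached 1544, 2492, 5107 and 3748 CPM, against 411, 323, 968 and 553 CPM, with no overlap. Its 12 h value was the highest of all 48 libraries, and it rose by 2.54 ± 0.35 (adjusted p = 4.96e-07). Mx2 had 69.8, 212, 401 and 234 CPM, against 24.4, 30.8, 86 and 43.8 CPM, and Cmpk2 had 742, 2139, 3776 and 2464 CPM, against 256, 278, 658 and 384 CPM. For both, the 12 h library of the combination was the highest of all 48. Mx2 rose by 2.28 ± 0.37 (adjusted p = 5.69e-06), Cmpk2 by 2.46 ± 0.38 (adjusted p = 2.54e-06) and Samhd1 by 2.49 ± 0.19 (adjusted p = 1.05e-12), with 525, 1122, 1242 and 888 CPM, against 117, 139, 243 and 167 CPM. These 5 calls were kept under every alternative tried. Bst2 rose by 0.40 ± 0.12 (adjusted p = 0.00872), with 681, 896, 1220.2 and 1230.1 CPM, against 675, 644, 997 and 689.7 CPM, and its 2 h values were close. It was not called with the 2 h and 6 h libraries alone (adjusted p = 0.282), with the 2 groups alone (0.0744) or with IL-2 libraries as controls (0.0505).

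In the fit to all libraries the combination was not called different from IFNγ alone for any member. Compared with IFNγ at 100 ng/ml, 0 members were called by edgeR or DESeq2 and 2 had an unadjusted p under 0.05, whereas 13.9% of all genes were called. The difference was 0.62 ± 0.33 (adjusted p = 0.226) for Rsad2, 0.56 ± 0.42 (adjusted p = 0.418) for Mx1 and 0.34 ± 0.18 (adjusted p = 0.206) for Samhd1. Without the 2 h libraries Ifitm3 was called higher in the combination, by 0.22 (adjusted p = 0.0284). Samhd1 was called higher with the 2 groups alone in the fit, by 0.33 (0.0350). At 6 h the libraries stood further apart: Mx1 had a log2 ratio to unstimulated cells of 3.51 with the combination and 1.66 with IFNγ, and Cmpk2 had 2.94 with the combination and 1.47 with IFNγ, with 1 library each and no test. Compared with TNF at 10 ng/ml, the combination was higher for Samhd1 by 1.56 ± 0.18 (adjusted p = 7.42e-08) and for Rsad2 by 1.02 ± 0.33 (adjusted p = 0.0358), 2 members against 9.12% of tested genes higher. Samhd1 did not overlap between these groups, with 525, 1122, 1242 and 888 CPM in the combination, against 134, 307, 474 and 396 CPM with TNF. The call of Rsad2 was lost without the 6 h (adjusted p = 0.201), the 12 h (0.154) or the 24 h libraries (0.0565). A test of whether the combination differed from the sum of the separate log2 changes called 0 members by edgeR or DESeq2, with 3 at an unadjusted p under 0.05 and 0.0819% of all genes called. The estimate was -1.26 ± 0.64 (adjusted p = 0.426) for Mx1, -1.09 ± 0.49 (adjusted p = 0.366) for Mx2 and -0.59 ± 0.25 (adjusted p = 0.344) for Samhd1. Those of Rsad2 and Cmpk2 were negative too, while those of Bst2, Ifitm1, Ifitm2 and Ifitm3 were positive.

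IFNα1 and IFNγ at 100 ng/ml were then set against each other. With IFNα1, Ifitm2 and Ifitm3 were higher, 2 members against 6.61% of tested genes higher, and Samhd1 was lower, against 9.48% lower. Samhd1 had 334, 543, 476 and 358 CPM with IFNα1, against 509.7, 771, 885 and 735 CPM with IFNγ, a difference of -0.74 ± 0.18 (adjusted p = 0.00448), and was lower at each of the 4 durations. Ifitm3 had 1377, 1279.7, 1273 and 1275 CPM with IFNα1, against 1328, 1049, 999.5 and 987 CPM with IFNγ, a difference of 0.26 ± 0.07 (adjusted p = 0.011). Ifitm2 differed by 0.40 ± 0.12 (adjusted p = 0.025). None of the 3 was called with the 2 h and 6 h libraries alone, nor without the 12 h libraries, where the adjusted p was 0.0959 for Samhd1, 0.167 for Ifitm3 and 0.328 for Ifitm2. Without the 6 h libraries Ifitm2 (0.105) and Ifitm3 (0.0799) were lost, and without the 24 h ones Samhd1 (0.0714) and Ifitm2 (0.0617). Bst2 was not called in this comparison by edgeR on all libraries. DESeq2 called it higher with IFNα1, by 0.35 (adjusted p = 0.0348), and so did edgeR without the 24 h libraries, by 0.44 (0.00571). The doses of these interferons are given in different units, so that the difference is between these preparations as used. Mx1 differed by 0.54 ± 0.43 (adjusted p = 0.429), and its sign changed with time. It had a log2 ratio to unstimulated cells of 3.78 with IFNα1 and 1.58 with IFNγ at 2 h, but 2.32 with IFNα1 and 3.27 with IFNγ at 24 h. Rsad2, Cmpk2 and Mx2 likewise were higher with IFNα1 at 2 h and lower at 24 h. None of these crossings was tested.

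Ifitm1 had a different pattern, a late decline with IFNγ, TNF and the combination but not with IFNα1. Ifitm1 had 102, 70.5, 31.4 and 15.7 CPM at 2, 6, 12 and 24 h in the combination, 103, 72.1, 43.4 and 38.1 CPM with IFNγ at 100 ng/ml, 96.8, 70.9, 42.8 and 43.7 CPM with TNF at 10 ng/ml and 109, 86.9, 99.1 and 96.5 CPM with IFNα1, against 106, 97.7, 90.8 and 113 CPM in unstimulated cells. The 2 h libraries lay close together, and at 24 h the combination, IFNγ and TNF libraries were all below the unstimulated one. At 24 h the combination was 7.07-fold lower. Averaged over durations, Ifitm1 fell in the combination by 0.99 ± 0.28 on the log2 scale (adjusted p = 0.00458). It differed by -0.73 ± 0.28 (adjusted p = 0.0547) with IFNγ and -0.73 ± 0.28 (adjusted p = 0.0642) with TNF. DESeq2 called both lower, at -0.74 with IFNγ (adjusted p = 0.0416) and -0.74 with TNF (0.0488). With the 12 h and 24 h libraries alone both were called, at -1.32 with IFNγ (adjusted p = 0.00195) and -1.23 with TNF (0.00417). The combination call was lost with the 2 h and 6 h libraries alone (-0.25, adjusted p = 0.126), without the 12 h libraries (-0.84, 0.0820) and without the 24 h ones (-0.58, 0.0603).

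Change with time was tested directly as a slope, the change in the log2 difference from unstimulated cells for each doubling of the hours. In the combination 3 members had a negative slope, against 9.24% of tested genes: Ifitm1 at -0.73 ± 0.10 (adjusted p = 1.04e-05), Ifitm2 at -0.29 ± 0.05 (adjusted p = 2.81e-05) and Ifitm3 at -0.13 ± 0.04 (adjusted p = 0.0108). The same 3 genes had a negative slope with IFNγ at 100 ng/ml, against 3.49% of tested genes, with Ifitm1 at -0.43 ± 0.09 (adjusted p = 0.00572), Ifitm2 at -0.15 ± 0.05 (adjusted p = 0.0394) and Ifitm3 at -0.16 ± 0.04 (adjusted p = 0.00558). With TNF at 10 ng/ml, Ifitm1 alone was called, at -0.36 ± 0.09 (adjusted p = 0.0398), against 1.21% of tested genes. With IFNα1 no member was called by edgeR or DESeq2, 3 had an unadjusted p under 0.05, and 0.848% of all genes were called. Ifitm1 there had a slope of -0.05 ± 0.09 (adjusted p = 0.874). The slopes of Ifitm1 and Ifitm2 in the combination were kept under every alternative. The others were lost without the 24 h libraries, where adjusted p was 0.242, 0.232 and 0.286 for Ifitm1, Ifitm2 and Ifitm3 with IFNγ, 0.396 for Ifitm1 with TNF and 0.256 for Ifitm3 in the combination. Without the 2 h libraries, Ifitm2 (0.514) and Ifitm3 (0.334) with IFNγ, Ifitm1 with TNF (0.134) and Ifitm3 in the combination (0.340) were lost too, and without the 12 h libraries Ifitm2 with IFNγ (0.134) and Ifitm1 with TNF (0.181). DESeq2 did not call the slope of Ifitm2 with IFNγ (adjusted p = 0.0674). Without a count filter that slope (0.0835) and the slope of Ifitm1 with TNF (0.0917) were not called by edgeR.

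Over all durations, Ifitm2 fell with IFNγ at 100 ng/ml by 0.43 ± 0.12 (adjusted p = 0.0117), with 82, 65.9, 48.8 and 50.1 CPM, against 89, 87.2, 75.6 and 76.6 CPM. With TNF at 10 ng/ml it had 72.2, 69, 58 and 55.5 CPM, and all 4 values lay below all 4 unstimulated ones. Its change was -0.41 ± 0.12 (adjusted p = 0.0209) with IFNγ at 1 ng/ml, -0.37 ± 0.12 (adjusted p = 0.0333) with TNF at 10 ng/ml and -0.35 ± 0.12 (adjusted p = 0.0201) in the combination. The calls with IFNγ were lost without the 6 h libraries (adjusted p = 0.0904 at 100 ng/ml and 0.143 at 1 ng/ml) and without the 12 h ones (0.179 and 0.178), and that at 1 ng/ml also without the 24 h ones (0.109). In the combination it was lost without the 6 h (0.0676), 12 h (0.201) or 24 h libraries (0.219). Ifitm3, the most abundant of the 9 genes per kilobase, stayed between 965 and 1428 CPM in all 48 libraries. Its values were 1428, 1233, 1159 and 1140.2 CPM in the combination and 1328, 1049, 999.5 and 987 CPM with IFNγ, against 1161, 1140.3, 1117 and 1289.5 CPM in unstimulated cells. The 2 h libraries with cytokine were above the unstimulated one and the 24 h libraries below it. With the 12 h and 24 h libraries alone Ifitm3 was called lower with IFNγ. Its change was then -0.28 at 100 ng/ml (adjusted p = 0.0169) and -0.30 at 1 ng/ml (0.0114). It was also called lower without the 2 h libraries, at -0.22 (0.0185) and -0.21 (0.0280) for these doses.

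TGF-β, a cytokine that restrains immune responses, gave the lowest level of all 48 libraries for 6 of the genes at 24 h, without a call over the series. By edgeR and by DESeq2 0 of the 9 genes were called, 1 had an unadjusted p under 0.05, and 8.28% of all genes were called. Mx1 stood at 18.8, 18.4, 41.8 and 4.97 CPM at 2, 6, 12 and 24 h, against 17.7, 26, 81 and 33.8 CPM in unstimulated cells. At 24 h it was 6.5-fold lower, a log2 ratio of -2.70. Cmpk2 had 249.7, 244, 449 and 87.3 CPM, against 256, 278, 658 and 384 CPM, and Rsad2 had 364, 272, 654 and 174 CPM, against 411, 323, 968 and 553 CPM. At 24 h the log2 ratio was -2.14 for Cmpk2, -1.66 for Rsad2, -1.52 for Mx2, -0.75 for Samhd1 and -0.61 for Bst2. Ifitm1 was at 0.02. These values rest on 1 library on either side and carry no test. Over all durations the change of Mx1 was -0.80 ± 0.54 (adjusted p = 0.484) and that of Cmpk2 -0.52 ± 0.36 (adjusted p = 0.503). The slope over time, added after the data were seen, called 0 members by edgeR or DESeq2, with 2 at an unadjusted p under 0.05 and 1.43% of all genes called, and stood at -0.58 ± 0.32 (adjusted p = 0.487) for Mx1 and -0.49 ± 0.22 (adjusted p = 0.357) for Cmpk2. Endothelial markers summed to 5.57 to 26.8 CPM in the TGF-β libraries, against 3.58 to 6.48 CPM in unstimulated ones, and fibroblast markers to 23.3 to 50.5 CPM, against 23.4 to 35.6 CPM. Their part in the result was not tested.

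**Figure D4:**
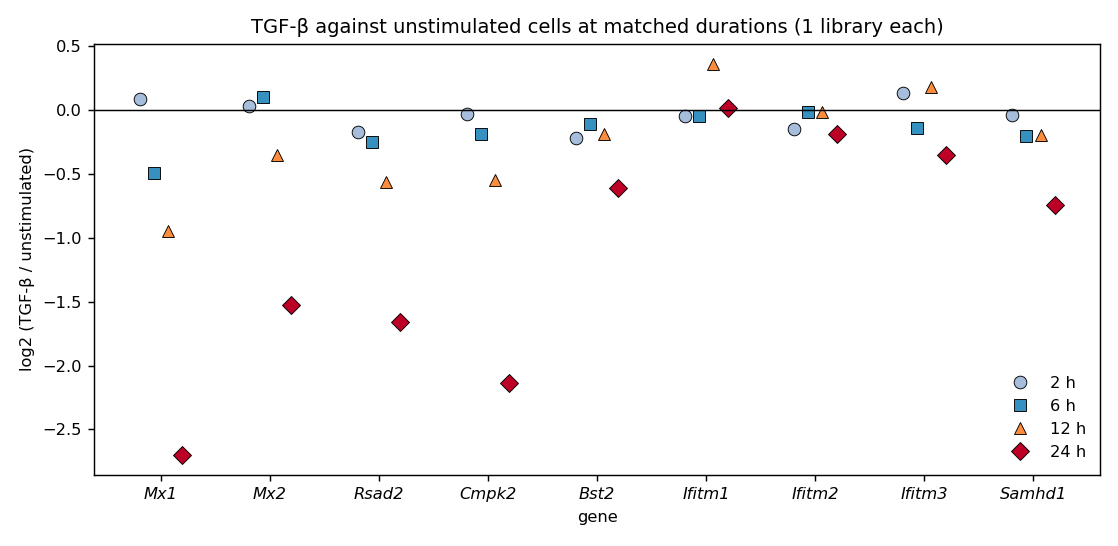
Log2 ratio of the TGF-β library to the unstimulated library at each duration, for each gene, with 1 library on either side. At 24 h (diamonds) Mx1 stands at -2.70 and Cmpk2 at -2.14, while Ifitm1 is at 0.02. The points at 2 h lie between -0.22 and 0.13.

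Lymphotoxin α1β2 and IL-2 gave 0 called members by edgeR or DESeq2, with no unadjusted p under 0.05 and 0% of all genes called in either comparison. With lymphotoxin Mx1 had 20.6, 15.5, 92.8 and 39.6 CPM, a difference of 0.04 ± 0.51 (adjusted p = 1), and its 6 h library was below the unstimulated one with a log2 ratio of -0.74. With IL-2 Mx1 had 26.2, 28.4, 86 and 40.8 CPM, a difference of 0.24 ± 0.51 (adjusted p = 1). Unstimulated cells had 17.7, 26, 81 and 33.8 CPM.

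Transcripts of type I interferon itself, counted after the data were seen, were also higher with several of these stimuli. Ifnb1, which encodes IFNβ, held 342 counts summed over the 4 libraries of the combination, 154 with TNF at 10 ng/ml, 92 at 1 ng/ml, 53 at 0.1 ng/ml, 66 with IFNγ at 100 ng/ml, 72 at 1 ng/ml, 28 at 0.01 ng/ml and 65 with IFNα1, against 17 in unstimulated cells. In the fit it rose by 4.02 ± 0.47 in the combination (adjusted p = 5.45e-09). With TNF it rose by 3.14 ± 0.51 at 10 ng/ml (2.24e-05) and 2.31 ± 0.55 at 1 ng/ml (0.0123). With IFNγ it rose by 1.80 ± 0.58 at 100 ng/ml (0.0216) and 2.06 ± 0.57 at 1 ng/ml (0.0106). The rise with IFNα1 was 1.76 ± 0.58 (0.0481). The unstimulated libraries held 3, 1, 7 and 6 counts of Ifnb1 at 2, 6, 12 and 24 h, and the TGF-β libraries 12, 2, 7 and 0. A count of 0 allows up to 3 counts. In the 12 h library of the combination it reached 218 counts. Ifna4 held 73 counts with IFNγ at 1 ng/ml, 64 in the combination, 61 with IFNγ at 100 ng/ml and 49 with IFNα1. Unstimulated cells held 14. The part of these transcripts in the changes of the members was not tested.

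Other antiviral effectors rose as well. Of 18 such genes, all tested, 18 rose with IFNα1 (median log2 change 1.08), 18 in the combination (1.02), 17 with IFNγ at 100 ng/ml (0.85), 16 with IFNγ at 1 ng/ml (0.76) and 14 with TNF at 10 ng/ml (0.65), while the median over all tested genes lay between -0.03 and -0.02. Ifit2, which binds viral RNA, rose by 2.53 ± 0.40 (adjusted p = 5.17e-05) with IFNα1 and 2.36 ± 0.40 (adjusted p = 4.57e-05) with IFNγ. Zbp1, a sensor of Z-form nucleic acid, rose by 1.89 ± 0.32 (adjusted p = 4.70e-05) with IFNγ and 1.54 ± 0.32 (adjusted p = 0.00103) with IFNα1. With TGF-β 1 of the 18 was called, Trim25, a ubiquitin ligase, at -0.41 ± 0.10 (adjusted p = 0.00788), and 8.28% of all tested genes were called in either direction.

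Of 15 receptors and signalling genes, 15 rose in the combination (median log2 change 0.88), 11 with IFNγ at 100 ng/ml (0.73) and 11 at 1 ng/ml (0.69), where 1 fell. With TNF at 10 ng/ml 11 rose (0.56), and with IFNα1 8 rose (0.60). Of all tested genes, 20.9%, 12.8%, 9.51%, 9.83% and 6.18% were called higher with these stimuli, in this order. With IFNγ at 1 ng/ml 5.47% were called lower. This list and that of the effectors were chosen with earlier results of these data known. Irf1 rose by 3.89 ± 0.31 (adjusted p = 1.80e-11) with IFNγ at 100 ng/ml and 1.94 ± 0.30 (adjusted p = 3.19e-05) with IFNα1, and differed by -1.95 ± 0.27 (adjusted p = 7.93e-06) between IFNα1 and IFNγ. The feedback inhibitor Socs1 rose by 1.66 ± 0.27 (adjusted p = 2.08e-05) with IFNγ and differed by -1.06 ± 0.25 (adjusted p = 0.00344) between IFNα1 and IFNγ. Usp18, a feedback inhibitor of the type I receptor, rose by 1.29 ± 0.24 (adjusted p = 3.35e-04) with IFNα1. TNF at 10 ng/ml raised the receptor subunits Ifngr2, by 1.18 ± 0.11 (adjusted p = 5.00e-10), and Ifnar1, by 0.52 ± 0.08 (adjusted p = 8.90e-06). With TNF at 1 ng/ml, 4 signalling genes and 1 effector rose, against 2.01% of tested genes higher. With TNF at 0.1 ng/ml, IFNγ at 0.01 ng/ml, lymphotoxin and IL-2, 0 genes of either list were called, and with TGF-β 0 signalling genes. Compared with IFNγ at 100 ng/ml, the combination was higher for 8 signalling genes and 1 effector, Zc3hav1, while 1036 of all 12203 tested genes were higher. IFNα1 was lower than IFNγ for 3 signalling genes, against 9.48% of tested genes lower. Compared with TNF at 10 ng/ml, the combination was higher for 6 signalling genes and 3 effectors, against 9.12% of tested genes higher. It was lower for 1 signalling gene, while 591 of all 12203 tested genes were lower.

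Across the 48 libraries, log2 CPM of Mx1 correlated with that of Mx2 (Pearson's r = 0.98), Rsad2 (0.96) and Cmpk2 (0.99), and less with Samhd1 (0.87) and Bst2 (0.82). Ifitm1 ran against them, with r = -0.70 to Mx1 and 0.90 to Ifitm2, while Ifitm3 had r = 0.01 to Mx1. The 3 genes most correlated with Mx1 were Ifit3 (0.983), Ifit3b (0.981) and Ifit2 (0.979). For Mx2 they were Ifit3b (0.979), Ifit3 (0.975) and Ddx60 (0.975). For Rsad2 they were Nub1 (0.962), Ifi207 (0.958) and Ifit2 (0.958). For Cmpk2 they were Ifit2 (0.991), Ifit3 (0.987) and Tlr3 (0.987). Bst2 and Samhd1 ran with other interferon genes, Bst2 with Irf7 (0.946), Oas2 (0.924) and Ly6e (0.922) and Samhd1 with Gbp2 (0.981), Tap1 (0.98) and Gbp7 (0.978). The IFITM genes had other neighbours: Ifitm1 had Ncam1 (0.952), Mtch1 (0.947) and Igfbp5 (0.945), Ifitm2 had Igfbp5 (0.91), Mtch1 (0.908) and Sulf2 (0.903) and Ifitm3 had Lipa (0.735), Ndufa3 (0.719) and Polr2k (0.679). These values describe 48 libraries that share stimuli and sampling times, and the points are not independent.

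The count ratio of the neighbours Rsad2 and Cmpk2 differed between the sampling times. The median ratio of Rsad2 to Cmpk2 counts over the 12 groups was 1.66 at 2 h, 1.10 at 6 h, 1.42 at 12 h and 1.44 at 24 h. The 12 libraries of 6 h lay between 1.03 and 1.19, below all libraries of the other durations. At 2 h the ratio was 2.23 with IFNα1, 2.08 in the combination and 2.02 to 2.19 with TNF at its 3 doses, against 1.60 in unstimulated cells, and IFNγ alone gave 1.59 to 1.67. At 24 h it was 2.00 with TGF-β, against 1.44 in unstimulated cells. Mx1 to Mx2 varied more within a time: at 6 h it was 1.65 with IFNα1 and 0.56 with TGF-β, against 0.84 in unstimulated cells, and at 24 h 0.33 with TGF-β, against 0.77. The 24 h TGF-β library held 37 counts of Mx1 and 112 of Mx2. Each ratio rests on 1 library and was not tested.

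**Figure D5:**
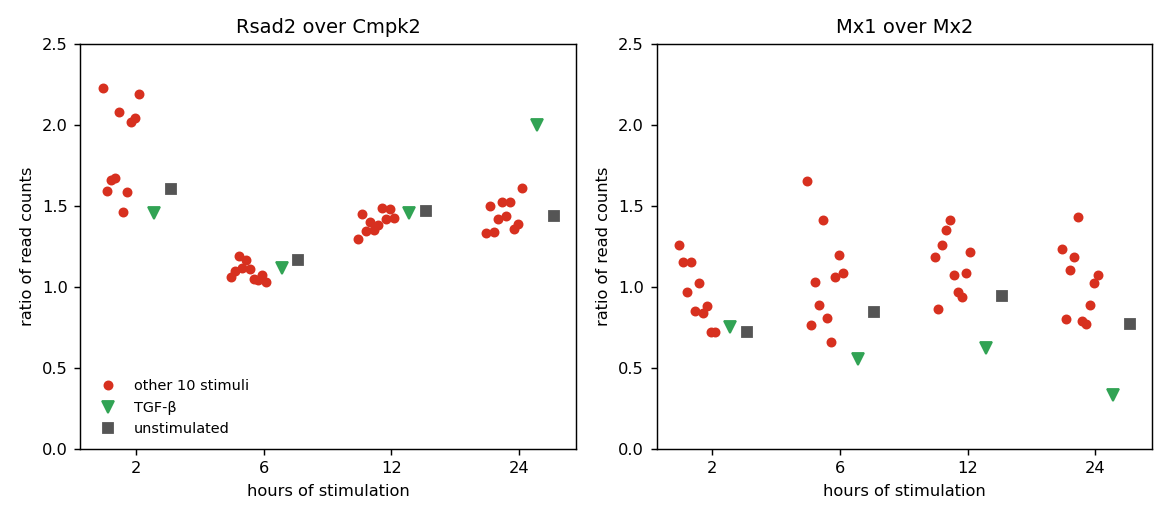
Ratio of read counts of Rsad2 to Cmpk2 (left) and of Mx1 to Mx2 (right) at each duration, with 1 point per library for 10 stimuli (circles), TGF-β (triangles) and unstimulated cells (squares). The Rsad2 to Cmpk2 ratios at 6 h, 1.03 to 1.19, lie below those of the other durations, and TGF-β stands apart at 24 h in both panels, at 2.00 and 0.33.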

How the data were processed

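RNA was made into stranded poly(A) libraries, per the labels' protocols, and reads were aligned with HISAT to GRCm38, per the submitters' processing notes. The HISAT version, the counter, the annotation and the strand setting were not given in the sources used here. The authors deposited raw read counts per gene for all 48 libraries in 1 table, and doses were taken from the sample titles. Counts were tested with edgeR's quasi-likelihood test (edgeR 4.0.16, limma 3.58.1, R 4.3.3) after TMM scaling. Genes passed a filter (filterByExpr, minimum count 10, minimum total 15), which kept 12203 genes, or 12504 in the slope model. The first model had terms for stimulus and duration, and the slope model let each stimulus change with log2 hours. P-values are two-sided with Benjamini-Hochberg adjustment over all tested genes and a threshold of 0.05. Standard errors were taken as the log2 change over the root of the F statistic. Duration numbers the libraries of each group 1 to 4 and pairs them across groups, so it is a term in the main fit. Ratios of 2 libraries used a prior count of 2. Intervals were not computed, and limits from a count of 0 cover counting error only. Named genes outside the members were the 3 most correlated with each and the listed pathway genes. The members and lists were chosen with earlier results of these data known. Scripts were tested on simulated data, and alternatives included DESeq2 1.42.0, other filters, left-out durations and other sets of libraries. Media from co-cultures were not analysed here.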

Additional observations from a re-analysis of the deposited data

Results flagged for a closer look

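Of 108 groups of 4 libraries screened for 1 value far from the rest, 4 were flagged, and chance flags about 5% of groups. In unstimulated cells the 12 h library was far above the others for Bst2, with 997 CPM and a gap of 0.844 of the group's range. With TNF at 0.1 ng/ml the 12 h library was far below the others for Ifitm2, at 67.2 CPM with a gap of 0.861, and for Ifitm3, at 1140 CPM with a gap of 0.921. With IFNα1 the 2 h library was far above the others for Ifitm3, at 1377 CPM with a gap of 0.938. The 4 libraries of a group are different durations.

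The difference from unstimulated cells changed with time for 7 combinations of gene and stimulus, each tested as an interaction with edgeR. Per doubling of the hours the log2 change was -0.73 for Ifitm1, -0.29 for Ifitm2 and -0.13 for Ifitm3 in the combination. It was -0.43 for Ifitm1, -0.15 for Ifitm2 and -0.16 for Ifitm3 with IFNγ at 100 ng/ml, and -0.36 for Ifitm1 with TNF at 10 ng/ml.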

How the results depend on the processing

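The 45 called values were compared over 500 pairs of value and alternative. In 383 pairs the call was kept and in 117 it was lost with the same sign, while 11 of the 45 were kept under every alternative run for them. Outside these pairs, values not called in the main fit were called with the same sign under an alternative in 42 cases. The 1 reversal was Ifitm2 in the combination against TNF at 10 ng/ml, not called over all durations and at -0.32 with the 12 h and 24 h libraries alone. Without the duration term (no replicate block) 3 members were called with IFNγ at 1 ng/ml, 0 with TNF at 10 ng/ml, 0 with TNF at 1 ng/ml, 2 with IFNα1, 1 in the combination against TNF at 10 ng/ml and 0 for IFNα1 against IFNγ. Over all tested genes, 355, 355, 38, 175, 426 and 134 were called in these comparisons, in this order. With the 2 h and 6 h libraries alone 1 was called with either of the higher IFNγ doses, 0 with TNF at 10 or 1 ng/ml, 5 in the combination, 1 in the combination against TNF and 0 for IFNα1 against IFNγ. All genes called there were 446 and 272 with IFNγ at 100 and 1 ng/ml, and 283 and 104 with TNF. They were 1853 in the combination, 455 in the combination against TNF and 172 for IFNα1 against IFNγ. With the compared groups alone 5 were called with IFNγ at 0.01 ng/ml, 2 with TNF at 1 ng/ml, 1 at 0.1 ng/ml, 5 in the combination, 2 with IFNα1, 1 in the combination against IFNγ, 5 against TNF and 1 for IFNα1 against IFNγ. Over all tested genes, 35, 889, 130, 2160, 820, 1097, 1131 and 422 were called in these comparisons, in this order. For TNF at 1 ng/ml DESeq2 called 3 (434 genes in all), the fit without a count filter 0 (201) and the fit against IL-2 libraries 0 (256). Without a count filter 1 was called in the combination against TNF (1263 genes in all) and 0 for the TNF slope (189). Leaving out 1 duration gave 5 to 8 members with IFNγ at 100 or 1 ng/ml, 2 to 7 with TNF at 10 ng/ml, 0 to 5 at 1 ng/ml, 6 to 8 in the combination, 5 to 6 with IFNα1, 0 to 1 in the combination against IFNγ, 1 to 3 against TNF and 0 to 5 for IFNα1 against IFNγ. Genes called in all were then 1041 to 3442 with IFNγ at 100 ng/ml and 667 to 2750 at 1 ng/ml. With TNF they were 794 to 2645 at 10 ng/ml and 43 to 718 at 1 ng/ml. They were 3436 to 5701 in the combination and 562 to 1363 with IFNα1. The combination against IFNγ had 643 to 2342, against TNF 786 to 2461, and IFNα1 against IFNγ 318 to 2793. For slopes, leaving out 1 duration gave 0 to 3 members with IFNγ, 0 to 1 with TNF, 2 to 3 in the combination and 0 to 1 with TGF-β. Over all tested genes these slopes had 38 to 999, 23 to 413, 689 to 2281 and 17 to 274 calls, in this order. Over all tested genes and settings, 446 to 3442 genes were called with IFNγ at 100 ng/ml, 283 to 2645 with TNF at 10 ng/ml, 1853 to 5701 in the combination, 175 to 1363 with IFNα1 and 241 to 1206 with TGF-β. The cause of these differences was not tested. At 5612907 to 9663207 counts per library, Ifnb1 rests on few reads, and 1 library per duration leaves single-time values untested.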
